A study of Mus musculus with 26 samples.

Results

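Levels of 10 cadherin genes were described in nuclei of the embryonic mouse somatosensory cortex, by cell class, genotype and maternal treatment. The genes, Cdh2, Cdh4, Cdh6, Cdh8, Cdh10, Cdh11, Cdh12, Cdh13, Cdh18 and Cdh20, were taken by symbol from the 30406 genes that all 8 libraries list, where 23 genes carry a Cdh symbol and a number. They were selected with measured values in view, since Cdh4 had been among the genes moving with treatment, so treatment differences are given below as a description, and nothing is read from the counts of calls printed beside them. Dams on a C57Bl/6N background were injected on embryonic day E12.5 with saline or with poly(I:C), an RNA duplex that mimics viral infection and serves as a model of maternal immune activation (MIA), and nuclei of male embryos were sorted from the prospective somatosensory cortex at E15.5. There were 4 groups of 2 libraries each: WT saline, WT MIA, Csf1r-null saline and Csf1r-null MIA. The Csf1r-null embryos lack, in every cell, the receptor for CSF1 on which microglia depend, and their WT controls were littermates. A library held 1 embryo or pooled embryos from 4 dams in all, and the labels do not tie libraries to dams, so replicate error may be smaller than that between litters.

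Cadherins are calcium-dependent adhesion proteins that bind like molecules on the neighbouring cell. The type I members Cdh2 (N-cadherin) and Cdh4 (R-cadherin) and the type II members Cdh6, Cdh8, Cdh10, Cdh11, Cdh12, Cdh18 and Cdh20 carry a cytoplasmic tail that binds catenins and, through them, actin. Cdh13 (T-cadherin) is held in the membrane by a lipid anchor and has no such tail. In the developing cortex, N-cadherin holds the apical junctions of radial progenitors together, and combinations of type II cadherins mark layers, areas and connected nuclei.

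The genes lie on 5 chromosomes of GRCm38 in the GENCODE annotation. Cdh6 (chr15:13028701-13173675, minus strand), Cdh10 (chr15:18818947-19014236, plus), Cdh12 (chr15:20449265-21589533, plus) and Cdh18 (chr15:22549022-23474418, plus) lie on chromosome 15. Cdh8 (chr8:99024471-99416471, minus), Cdh11 (chr8:102632095-102785642, minus) and Cdh13 (chr8:118283733-119324921, plus) lie on chromosome 8. Cdh20 (chr1:104768529-104995481, plus) and Cdh4 (chr2:179442431-179899373, plus) have no other member on their chromosome, nor has Cdh2. RefSeq promoter windows of GRCm38.p6, from 250 bases before to 50 after the annotated start, were found for 6 members, and 5 are shown because their genes have the steep class or cluster patterns described below. The RefSeq starts of Cdh12 and Cdh18 lie far inside the GENCODE intervals given above, and that of Cdh10 slightly inside, so these windows are not at the outermost annotated starts. Capitals mark the E-box letters CANNTG, read the same on both strands, to which proneural bHLH factors such as Neurod1 and Neurog2 can bind.
Cdh8 (chr8:99416422-99416721, minus strand): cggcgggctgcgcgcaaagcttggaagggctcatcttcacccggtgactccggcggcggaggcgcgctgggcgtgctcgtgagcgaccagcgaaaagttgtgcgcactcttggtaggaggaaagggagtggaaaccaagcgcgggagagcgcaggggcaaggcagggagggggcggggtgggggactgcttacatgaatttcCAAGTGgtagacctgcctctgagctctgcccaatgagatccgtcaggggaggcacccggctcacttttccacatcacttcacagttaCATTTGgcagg
Cdh10 (chr15:18820079-18820378, plus strand): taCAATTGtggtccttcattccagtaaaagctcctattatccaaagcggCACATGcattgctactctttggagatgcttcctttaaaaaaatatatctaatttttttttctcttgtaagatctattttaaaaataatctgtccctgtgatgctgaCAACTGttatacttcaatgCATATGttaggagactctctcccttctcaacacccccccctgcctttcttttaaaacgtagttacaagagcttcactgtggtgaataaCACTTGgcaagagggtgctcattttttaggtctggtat
Cdh12 (chr15:21111202-21111501, plus strand): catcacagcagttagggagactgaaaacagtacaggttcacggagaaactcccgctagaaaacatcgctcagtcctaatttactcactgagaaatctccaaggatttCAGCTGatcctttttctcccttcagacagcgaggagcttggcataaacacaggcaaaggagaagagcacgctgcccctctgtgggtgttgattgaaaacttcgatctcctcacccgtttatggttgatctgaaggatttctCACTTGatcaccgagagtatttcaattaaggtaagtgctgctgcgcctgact
Cdh20 (chr1:104768270-104768569, plus strand): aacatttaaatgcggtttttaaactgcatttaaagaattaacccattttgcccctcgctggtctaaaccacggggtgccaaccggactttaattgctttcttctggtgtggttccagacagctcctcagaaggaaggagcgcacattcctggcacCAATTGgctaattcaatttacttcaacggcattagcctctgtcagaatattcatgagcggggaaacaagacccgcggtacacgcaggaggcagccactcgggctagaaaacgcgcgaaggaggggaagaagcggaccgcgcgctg
Cdh18 (chr15:23036213-23036512, plus strand): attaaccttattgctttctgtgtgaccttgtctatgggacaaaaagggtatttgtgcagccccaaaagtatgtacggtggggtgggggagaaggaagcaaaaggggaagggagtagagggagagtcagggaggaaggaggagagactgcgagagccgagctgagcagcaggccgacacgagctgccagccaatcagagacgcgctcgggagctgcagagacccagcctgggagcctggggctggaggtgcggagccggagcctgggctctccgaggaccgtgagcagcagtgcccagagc
The Cdh10 window held 5 such matches, a number reached by 2.10% of 32851 promoter windows of the same length, and was 37.7% G or C against a median of 52.7%. The Cdh8 window held 2 matches at 62.3% G or C, the Cdh12 window 2 at 46.7% and the Cdh20 window 1 at 50.7%. At least 1 match was in 72.3% of all windows, so a match is a description of letters and not a binding site. The window of Cdh6 held 1 match and that of Cdh18 held none. Cdh2, Cdh4, Cdh11 and Cdh13 were not in the promoter table.

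After filtering, 43456 nuclei with 9897721 to 17605575 unique molecular identifiers (UMIs, 1 per captured transcript) per library remained, and 41539 after removal of 1917 doublets. Pairs of libraries shared at most 14 barcodes. Nuclei were clustered without any Cdh gene, and 7 classes with at least 20 nuclei in every library were named from listed markers: apical progenitors (AP), intermediate progenitors (IP), migrating neurons (MN), callosal (CPN), subcerebral (SCPN) and corticothalamic (CThPN) projection neurons and interneurons (IN). All listed markers were raised in IP, MN and CThPN, 11 of 12 in IN, 9 and 10 of 10 in the AP clusters, 5 of 7 in CPN and 4 of 7 in SCPN. Microglial genes went against 2 labels. The library labelled WT MIA replicate 2 held 0 microglia-like nuclei and 0 Csf1r UMIs, where the other WT libraries held 6 to 9 such nuclei, and 7 were found in Csf1r-null saline replicate 2 as labelled, where the other null libraries held 0. Csf1r was at 0.983 to 1.91 UMIs per 1000000 UMIs (CPM) in the other WT libraries and at 0.0979 to 0.297 in the other null libraries, against 1.1 in that null library. The paper genotyped embryos for Csf1r from tail samples. It reports that Csf1r-null mice nearly lost the microglia cluster and lacked microglia by immunostaining. Labels were kept, and the 2 libraries named above are called doubted below. Values without them are given where stated. All other values, those of the related gene lists among them, include both. The library WT saline replicate 1 contributed 694 of the 826 nuclei of a cluster led by Ebf1 and Isl1, genes of ventral forebrain neurons.

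The levels of the members separated the classes of cortical cells (the plot of levels by class). Levels are in CPM of the class in a library. The libraries count transcript ends, so levels are compared between classes for 1 gene and not between genes. Free RNA was read from barcodes with 10 to 99 UMIs, which only the replicate 1 libraries list. The order of classes was not tested, since all classes came from the same libraries, and each step is given as the number of libraries in which it held.

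**Figure D1:**
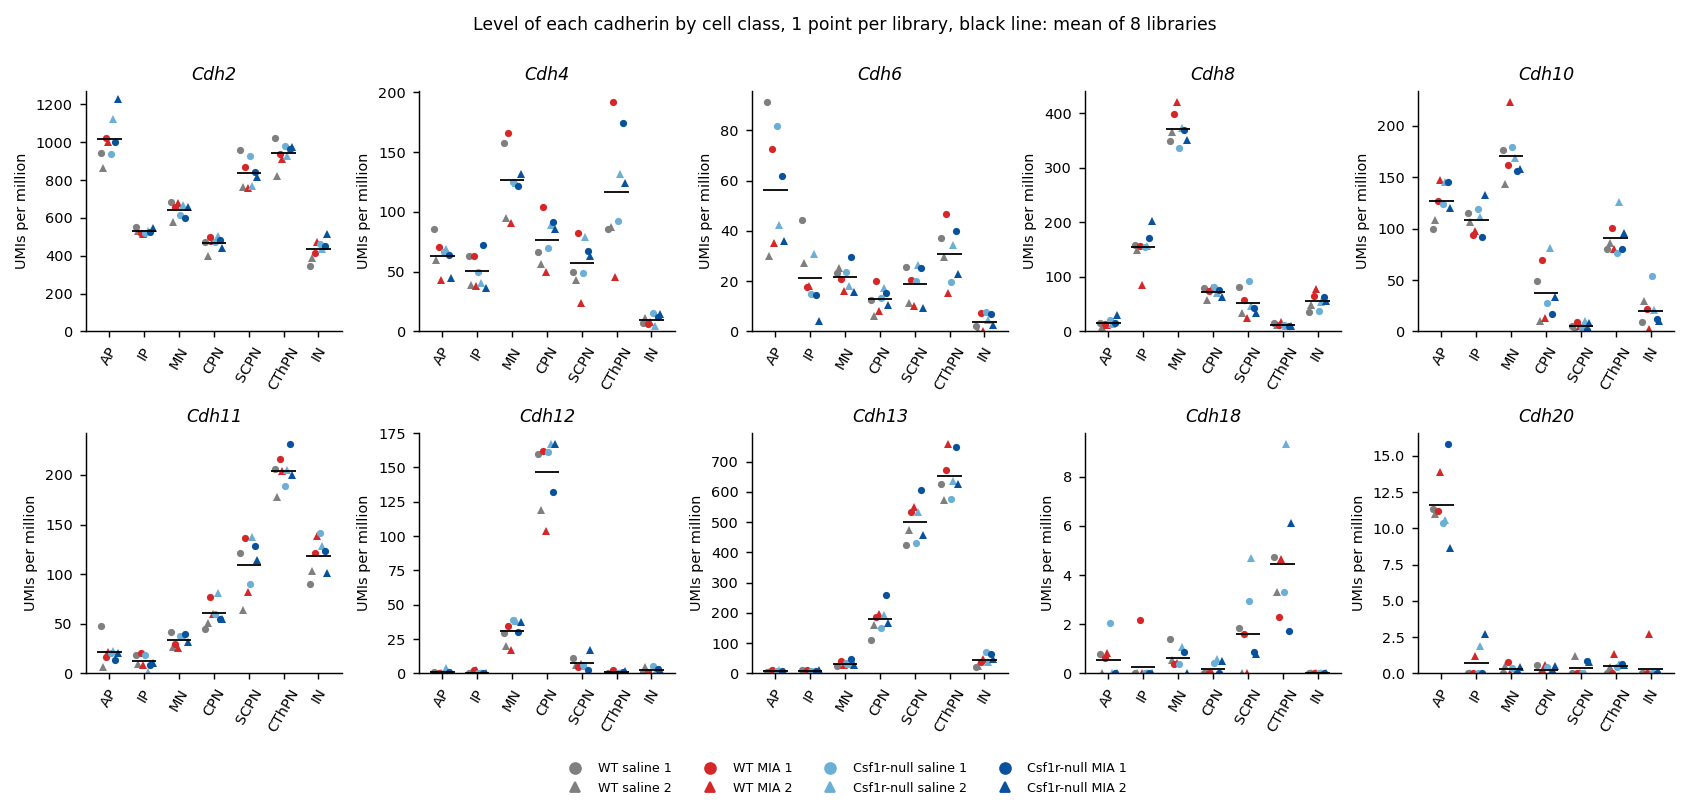
Level of each cadherin (vertical axes, CPM, from 0) in 7 cell classes (horizontal axes), 1 point per library, coloured by group and shaped by replicate number, with the mean of 8 libraries as a black line. Cdh8 is highest in migrating neurons, Cdh12 in callosal, Cdh13 and Cdh11 in corticothalamic neurons and Cdh20 in apical progenitors, in points from all 4 groups.

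Of the type I genes, Cdh2, which encodes the N-cadherin of apical junctions, lies at chr18:16588877-16809246 on the minus strand and was detected in every class. In AP its level was lowest at 862, median 1001 and highest at 1229 CPM, with a mean of 1015 ± 115 (SD, n = 8). CThPN followed at 943 ± 59.6 and SCPN at 838 ± 76.4. AP exceeded CThPN in 6 of 8 libraries only, whereas CThPN exceeded SCPN in 8 of 8. The level fell to 642 ± 39.7 in MN, 530 ± 12.3 in IP, 469 ± 33.8 in CPN and 437 ± 52.1 in IN. CPN and IN changed order in 1 library. The mean differed 2.32-fold between the highest and the lowest class, the smallest such ratio among the members found in all 7 classes. Free RNA held 522 to 564 CPM of Cdh2, above its level in every library of CPN and IN.

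Cdh4, the R-cadherin gene, was highest in MN at 127 ± 26.5 CPM (lowest 90.7, median 125, highest 166) and CThPN at 117 ± 49.0 (lowest 45.4, median 108, highest 192). MN and CThPN could not be ordered, MN being higher in 5 of 8 libraries. CPN at 76.5 ± 18.9, AP at 62.8 ± 13.8, SCPN at 57.1 ± 19.6 and IP at 50.3 ± 14 overlapped, and each step held in only 4 to 6 libraries. Free RNA held 64.3 to 88.2 CPM of Cdh4, so that these 4 classes lay within or under it on average and MN and CThPN above it. IN stood apart at 9.85 ± 4.05, below IP in 8 of 8 libraries with ranges that did not overlap. In Cajal-Retzius cells, the early Reln-producing neurons of the marginal zone, 150 UMIs of Cdh4 in 137 nuclei pooled over all libraries gave 286 CPM (exact Poisson 95% interval 242 to 335, counting error only). That level was above the highest library of any of the 7 classes.

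Among the type II genes, Cdh6 and Cdh20 were highest in AP. Cdh6 was lowest at 30, median 51.9 and highest at 91.2 CPM there, a mean of 56.3 ± 23.7. It exceeded CThPN, at 30.7 ± 10.8, in 8 of 8 libraries by 1.83-fold. MN at 21.6 ± 4.79, IP at 21.4 ± 12.4 and SCPN at 18.7 ± 7.24 overlapped, CPN held 12.9 ± 4.68, and IN was lowest at 3.88 ± 3.15. Free RNA held 11.3 to 21.0 CPM of Cdh6. Among the 7 classes Cdh20 was found mostly in AP, at 11.6 ± 2.24 CPM (lowest 8.63, median 11.1, highest 15.8). Its AP range did not overlap that of any other class, the next being IP at 0.729 ± 1.08, and 105 of its 132 UMIs in the 7 classes were in AP. Free RNA held 0 to 2.48 CPM of Cdh20, and the other 6 classes, at most 0.729 on average, were within that range. Outside the classes, unnamed clusters led by genes of dividing cells held 5.07 ± 3.57 CPM (10 UMIs) and 10.3 ± 14.9 CPM (4 UMIs) of Cdh20.

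Cdh8 was highest in migrating neurons, as were Cdh4 and Cdh10 on average. Its level in MN was lowest at 336, median 368 and highest at 421 CPM, a mean of 371 ± 27.7. MN exceeded IP, at 155 ± 32.8, by 2.40-fold, and IP exceeded CPN, at 72.7 ± 8.88, by 2.13-fold, each in 8 of 8 libraries and without overlap. IN at 55.3 ± 14 and SCPN at 51.8 ± 24.3 overlapped, and AP at 16.2 ± 6.54 and CThPN at 11.8 ± 2.54 were lowest. Cdh8 was thus low in the progenitors that line the ventricle, high in newly born neurons and low again in the deepest projection neurons. Both low classes lay under the 43.0 to 63.2 CPM of free RNA, and the means of IN and SCPN lay within that range.

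Within MN, 3 clusters made up the class, and Cdh8 differed among them (the plot of levels by cluster). The cluster led by Cxcl12, Itga4 and Nrp2 (Cxcl12 cluster below), with Cdh8 itself among its 10 leading genes, held 617 ± 57.4 CPM of Cdh8 (lowest 553, median 611, highest 726). The other clusters held 286 ± 53.6 and 296 ± 41.1, and their highest libraries, 375 and 387, lay under the lowest library of the Cxcl12 cluster. The Cxcl12 cluster held 196 to 279 of the 826 to 1400 MN nuclei of a library.

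Cdh10 followed a like course within MN but had its highest level elsewhere. Over the 7 classes it was highest in MN at 171 ± 24.0 CPM (lowest 143, median 165, highest 223), above AP at 127 ± 17.6 in 8 of 8 libraries. AP, IP at 108 ± 14.2 and CThPN at 90.6 ± 16.6 overlapped. CPN at 37.6 ± 26.5 and IN at 19.8 ± 16.0 varied widely between libraries, and SCPN was lowest at 5.64 ± 3.25. Free RNA held 28.2 to 45.9 CPM of Cdh10, a range that holds the mean of CPN and lies above those of IN and SCPN. The Cxcl12 cluster of MN held 327 ± 56.1 CPM of Cdh10, against 133 ± 29.4 and 114 ± 26.3 in the other MN clusters. An unnamed cluster of 754 nuclei, led by Abca8a, Unc5c, Kcnip4, Cntn5 and Sv2b, held 1237 ± 154 (lowest 999, median 1293, highest 1390). Its lowest library was above the 402 of the highest library of the Cxcl12 cluster. This cluster was left unnamed because no marker of a class was among its 10 leading genes, although 594 of its nuclei scored highest for CThPN markers.

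The same unnamed cluster held more of Cdh18 than any of the 7 classes. Cdh18 stood there at 119 ± 27.5 CPM (lowest 87.7, median 117, highest 160), against 4.43 ± 2.43 in CThPN, its highest class. In Cajal-Retzius cells 31 UMIs gave 59.1 CPM (exact Poisson 95% interval 40.1 to 83.8). In IN 0 UMIs of Cdh18 were found, and in the other classes its mean was 0.191 to 1.59, with libraries at 0 in each. Free RNA held 1.46 to 1.84 CPM of Cdh18, so that the means of these classes lay within or under it. Cdh11 stood at 315 ± 57.7, Cdh12 at 111 ± 20.8 and Cdh13 at 612 ± 61.9 CPM in the unnamed cluster, whereas Cdh8 was at 12.2 ± 19.0 and Cdh20 at 0. Cdh2 stood at 699 ± 29.4 CPM there. The leading genes of this cluster were found by comparing these same nuclei, and Cdh18 was itself among them, so the cluster's levels are no test.

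**Figure D2:**
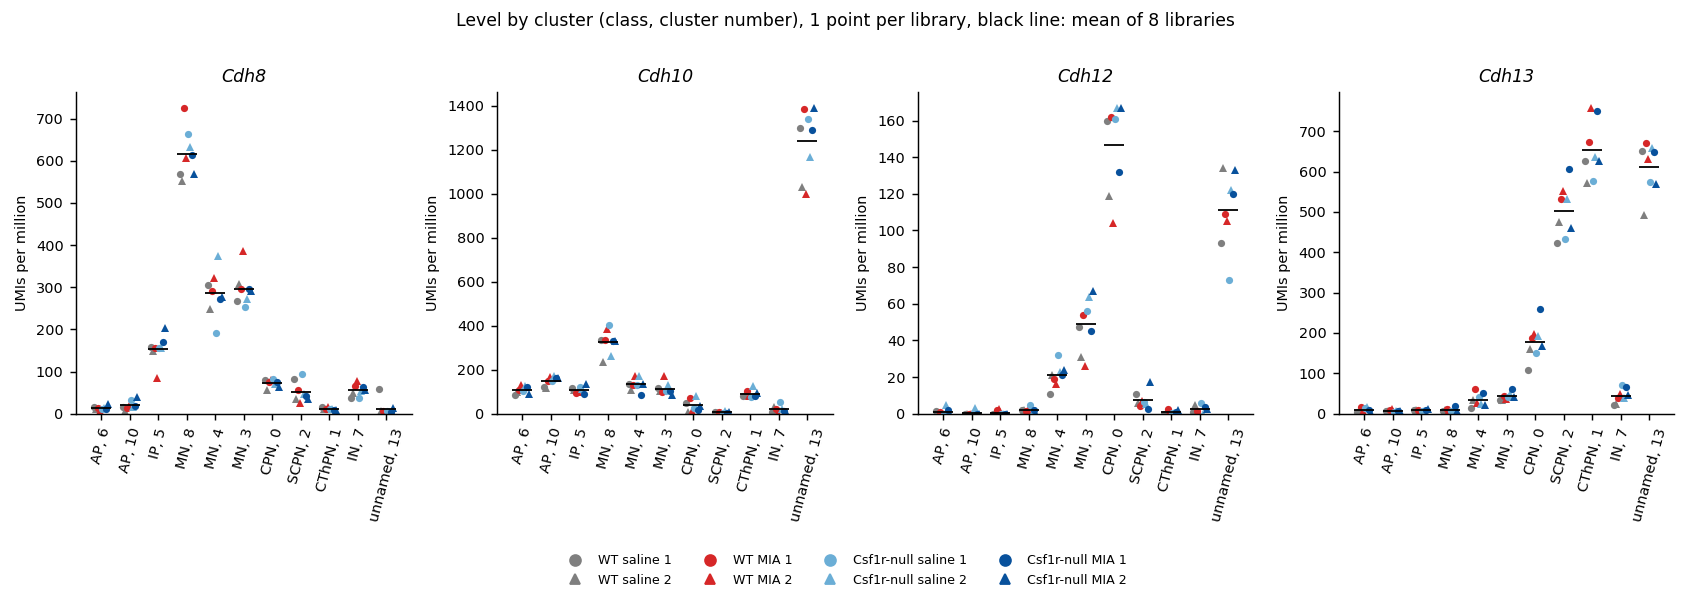
Level (vertical axes, CPM, from 0) of Cdh8, Cdh10, Cdh12 and Cdh13 in 10 clusters of the named classes and the unnamed cluster 13, 1 point per library with the mean of 8 libraries as a black line. Cdh8 peaks in migrating neuron cluster 8, Cdh10 in cluster 13, Cdh12 in callosal neurons, and Cdh13 in corticothalamic neurons and cluster 13.

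Among the named classes, Cdh12 was highest in callosal neurons, which send their axons across the midline. Its level in CPN was lowest at 104, median 160 and highest at 167 CPM, a mean of 147 ± 24.6. It exceeded MN, at 30.7 ± 8.29, by 4.77-fold in 8 of 8 libraries without overlap. The unnamed cluster led by Abca8a and Unc5c held 111 ± 20.8 CPM of Cdh12 (lowest 72.8, highest 134), a range that overlapped that of CPN. An unnamed cluster led by mitochondrial genes held 67.3 ± 21.2. Within MN the level was 48.8 ± 14.5 in the cluster led by Ndst3, Nrp1 and Pdzrn3, 20.9 ± 6.11 in the cluster led by Sema3c and Sstr2, and 1.74 ± 1.53 in the Cxcl12 cluster. Cdh12 was thus lowest in the MN cluster where Cdh8 was highest. SCPN held 7.52 ± 4.64, and IN, CThPN, AP and IP held 2.31, 1.03, 0.772 and 0.573 on average, under the 13.5 to 23.4 CPM of free RNA.

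Of the 7 classes, Cdh11 and Cdh13 were highest in corticothalamic neurons, the layer 6 cells that project to the thalamus. Cdh13 in CThPN was lowest at 572, median 631 and highest at 758 CPM, a mean of 652 ± 71.1. SCPN followed at 502 ± 64.1, lower in 8 of 8 libraries, then CPN at 178 ± 43.6, a 2.81-fold step without overlap. IN at 44.5 ± 17.1 and MN at 32.4 ± 8.19 could not be ordered, and IP at 8.64 ± 2.29 and AP at 7.91 ± 3.17 were lowest. Free RNA held 147 to 188 CPM of Cdh13, a range that holds the mean of CPN and lies far above those of IN, MN and the progenitors. Cdh11 in CThPN was lowest at 178, median 205 and highest at 231, a mean of 204 ± 15.9, below the lowest library of the unnamed cluster, 246. In CThPN it exceeded IN, at 118 ± 18.4, in 8 of 8 libraries without overlap. IN and SCPN, at 109 ± 27.1, could not be ordered, and CPN at 60.4 ± 12.3, MN at 33.8 ± 6.12, AP at 21.3 ± 11.9 and IP at 12.2 ± 6.46 followed. Free RNA held 48.4 to 68.0 CPM of Cdh11. Cdh11 and Cdh13 shared the order CThPN, SCPN, CPN, MN among glutamatergic neurons and differed in IN, which lay above CPN on average for Cdh11 and below it for Cdh13.

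In 3 rare classes, pooled over libraries, the members were read from few UMIs. Cajal-Retzius cells held 328 CPM of Cdh2 (172 UMIs, exact Poisson 95% interval 281 to 381) and 74.3 CPM of Cdh11 (52.8 to 102), and 0 UMIs of Cdh20. In 57 pericytes, the mural cells of capillaries, Cdh2 stood at 566 CPM (447 to 706) and Cdh11 at 102 CPM (55.5 to 170), while Cdh8, Cdh10, Cdh13, Cdh18 and Cdh20 had 0 UMIs, below a floor of 3 counts at 21.8 CPM. The Cdh2 value of pericytes was that of free RNA, 522 to 564 CPM, within its interval. In 31 microglia-like nuclei 4 UMIs of Cdh2 were the only ones of any member, and the others lay below a floor of 3 counts at 55.1 CPM.

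For each member the genes with the most alike pattern were found by the Pearson correlation of log2(CPM + 1) over 56 points, 7 classes in 8 libraries, among genes with a mean of at least 20 CPM. These points share libraries and nuclei, so the coefficients are a description. Cdh13 was most alike to Phactr1 (r = 0.98), Opcml (0.95) and Aig1 (0.95). Cdh12 was most alike to Flrt3 (0.94), an adhesion gene of the FLRT family, Igsf3 (0.89) and Bcl6 (0.88). Among the genes most alike to Cdh11 were Fry and Ina (each 0.93), and Cdh8 was most alike to Neurod1 (0.91), Snrnp70 (0.89) and Rnd2 (0.88). Cdh20 was most alike to Cenpk (0.91), Rad51ap1 and Lfng (each 0.90), Cdh4 to Nfib (0.87), Prex1 (0.85) and Kcnn3 (0.84), and Cdh2 to Slitrk2 (0.87), E2f7 and Nrcam (each 0.80). The remaining members were most alike to the following genes, Cdh10 to Col11a1 (0.84), Lrp1b (0.82) and Glg1 (0.77), Cdh6 to Gins2 (0.81), Itga6 (0.79) and Plekha6 (0.78), and Cdh18 to Xpr1, Tle4 (each 0.76) and B3galt2 (0.75). Between members the highest coefficient was that of Cdh11 with Cdh13, at 0.82, and the lowest that of Cdh2 with Cdh8, at -0.53.

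Genotype was not named in the rule that selected the members, though they were chosen with earlier results of these data known. Csf1r-null was compared with WT over both treatments, 4 libraries against 4, by edgeR's quasi-likelihood test in each class with Benjamini-Hochberg adjustment over all its genes. Of 70 member by class pairs, 51 passed the filter on low counts, among them Cdh12 in 3 classes and Cdh18 and Cdh20 in 1 each. None of the 51 passed an adjusted p of 0.05, against 0% of 70630 pairs over all genes, and 3 had an unadjusted p under 0.05, against 3.29% of all pairs. DESeq2 also called 0 of the 51, and 4 of all 70630 pairs. With the replicate number as a block, a term for the difference between replicates 1 and 2, 0 of the 51 were called, against 0.0481% of all pairs, and 5 had an unadjusted p under 0.05, against 6.83% of all pairs. The median difference of the 51 pairs was 0.10 on the log2 scale, with 36 above and 15 below 0, beside a median of 0.00 over all genes. Without both doubted libraries the median was -0.00, with 25 above and 26 below 0, so the tilt was not kept. In 0 of the 51 pairs did the 4 null and 4 WT libraries not overlap, where 2.15% of all pairs did so.

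The pair with the lowest unadjusted p was Cdh13 in interneurons. Its levels were 22.7 and 24.7 CPM in WT saline, 38.8 and 48.6 in WT MIA, 70.7 and 38.8 in Csf1r-null saline and 64.9 and 46.8 in Csf1r-null MIA. Both WT saline libraries were lowest, and the null libraries overlapped the WT MIA libraries. The null mean was 55.3 against 33.7, a log2 difference of 0.83 ± 0.25 (SE, edgeR adjusted p = 0.952), and over 17 alternatives the adjusted p ranged from 0.154 to 1.00. Without both doubted libraries the log2 difference was 1.05. In the interneuron class, 5 of 8 ventral markers had UMIs in WT saline replicate 1, summing to 117 CPM with Drd1 and Rxrg among those at 0, where the other libraries summed to 0 to 11.4. The part of these markers in the result was not tested. The Cdh13 values in IN, at most 70.7 CPM and from 192 UMIs over all libraries, lay under the 147 to 188 CPM of free RNA. Its part was not tested either.

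Cdh12 in MN was at 29.5 and 19.7 CPM in WT saline, 34.5 and 17.3 in WT MIA, 39.0 and 38.1 in Csf1r-null saline and 30.5 and 37.3 in Csf1r-null MIA. The 3 highest libraries were Csf1r-null, the remaining null library lay below WT MIA replicate 1, and the log2 difference was 0.52 ± 0.21 (edgeR adjusted p = 1.00). Cdh6 in IP was at 44.5 and 27.4 in WT saline, 17.5 and 18.0 in WT MIA, 14.7 and 30.7 in Csf1r-null saline and 14.5 and 4.07 in Csf1r-null MIA, a log2 difference of -0.81 ± 0.38 (edgeR adjusted p = 0.998). Cdh8 differed by 0.68 ± 0.32 in AP (edgeR adjusted p = 0.839) and by 0.34 ± 0.19 in IP (edgeR adjusted p = 0.998). Without both doubted libraries these 4 differences were 0.31, -1.09, 0.75 and 0.15, in that order. The mean of Cdh8 in AP, 16.2 CPM, lay under the 43.0 to 63.2 CPM of free RNA, whose part was not tested. For pairs with high counts the standard errors were small. Cdh2 differed by 0.08 ± 0.11 in CThPN and 0.05 ± 0.12 in CPN, Cdh8 by -0.10 ± 0.13 in MN and Cdh13 by -0.00 ± 0.13 in CThPN. The standard errors of Cdh10 in SCPN, 0.61, and of Cdh12 in SCPN, 0.55, were larger, so that only large changes could be detected there.

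**Figure D3:**
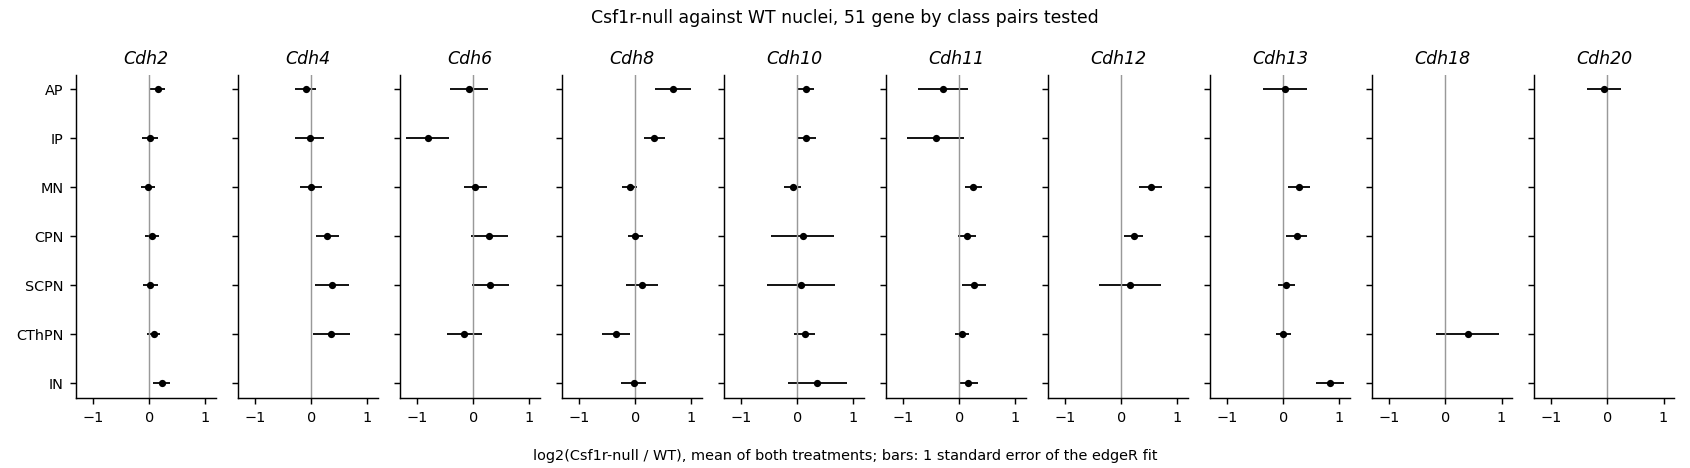
Log2 difference of Csf1r-null against WT (horizontal axes, mean of both treatments, bars 1 standard error of the edgeR fit) for the 51 tested pairs of cadherin and class (rows). Of the 51 points 36 lie above and 15 below 0 (25 and 26 without both doubted libraries), and Cdh13 in IN stands at 0.83 ± 0.25.

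Related genes from 4 lists were not called by genotype, and neither was any of the 70630 pairs over all genes in edgeR. An unadjusted p under 0.05 was found in 3.29% of all pairs. The 0 calls below are thus no trait of the lists. Of 10 other classical cadherins, Cdh7, Cdh9 and Cdh24 were tested in 13 pairs, and 0 passed an edgeR adjusted p of 0.05, with 0 at an unadjusted p under 0.05. Of the catenins and their linkers, which join cadherin tails to actin, 12 genes gave 66 pairs with 0 calls and 0 at an unadjusted p under 0.05. Of the Celsr, Fat and Dchs genes, the large cadherins of planar polarity, 7 of 9 gave 40 pairs with 0 calls and 3 at an unadjusted p under 0.05, and 10 delta-protocadherins gave 50 pairs with 0 calls and 2 unadjusted. DESeq2 and the fit with the replicate block also called 0 in each list, against 4 and 34 of all 70630 pairs. The median log2 difference was 0.13, 0.06, 0.09 and 0.05 in the 4 lists, in that order. Treatment over both genotypes gave 0 calls in each list as well by edgeR and by DESeq2, against 0 and 13 of all 70630 pairs. An unadjusted edgeR p under 0.05 was found in 0, 0, 2 and 2 pairs of the lists, against 3.6% of all pairs.

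The named genes of these lists had class patterns of their own. Ctnnb1, the beta-catenin gene, was highest in IP at 470 ± 92.4 CPM (SD, n = 8), Ctnna2, a neuronal alpha-catenin, in SCPN at 286 ± 33.4, and Afdn, a linker to actin, in IN at 833 ± 89.2. Celsr1 was highest in IP at 335 ± 71.7, Celsr2 in MN at 217 ± 45.8 and Fat3 in CThPN at 308 ± 49.2. Pcdh9 and Pcdh7 were highest in CThPN at 357 ± 25.5 and 269 ± 52.2, and Pcdh10 in AP at 254 ± 22.3. Cdh24 was highest in AP at 50.8 ± 10.1, Cdh7 in CThPN at 27.8 ± 5.27 and Cdh9 in CThPN at 14.3 ± 4.01. By genotype, the pairs with the lowest p were Pcdh10 in IN at a log2 difference of 0.82 ± 0.21 (edgeR adjusted p = 0.952), Pcdh7 in IP at 0.76 ± 0.21 (edgeR adjusted p = 0.998) and Fat3 in IP at 0.96 ± 0.36 (edgeR adjusted p = 0.998). The remaining genes picked by that rule, Pcdh9, Fat1, Dchs1, Arvcf, Ctnna2, Ctnnd1, Cdh24, Cdh9 and Cdh7, differed by 0.21 to 0.34 on the log2 scale, with adjusted p from 0.842 to 1.00 in edgeR.

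Treatment differences of the members are a description, since treatment had entered their selection. In WT, MIA against saline, edgeR called 0 of the 51 pairs and 0% of all 70630 pairs, with 3 of the 51 and 5.75% of all pairs at an unadjusted p under 0.05. The replicate block called 0 of the 51 and 0.497% of all pairs, and DESeq2 called 0 of the 51 and 74 of all 70630 pairs. In Csf1r-null, 0 of 51 and 0% of all pairs were called. Over both genotypes 0 of 51 and 0% of all pairs were called, and 0.0269% of all pairs and 0 of the 51 with the block. For the difference between the WT and the null response, 0 of 51 and 0% of all pairs were called, and 0.00283% of all pairs and 0 of the 51 with the block. At an unadjusted p under 0.05 there were 2 of the 51 in Csf1r-null (1.17% of all pairs), 3 over both genotypes (3.6%) and 2 for the difference of responses (2.62%). DESeq2 called 0 of the 51 in each, and 0, 13 and 0 of all 70630 pairs in that order. In 3 of the 51 pairs, and 3.67% of all pairs, the MIA and saline libraries did not overlap in either genotype and lay in opposite order in WT and Csf1r-null.

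With all libraries, Cdh4, the gene that had been chosen for treatment, moved in no common direction (the plot of Cdh4 by group). In CThPN it was at 85.7 and 87.6 CPM in WT saline, 192 and 45.4 in WT MIA, 92.4 and 132 in Csf1r-null saline and 174 and 124 in Csf1r-null MIA. The 2 WT MIA libraries lay on both sides of the WT saline libraries, and the lower was the doubted one. The log2 difference of MIA against saline was 0.43 ± 0.46 in WT and 0.40 ± 0.46 in Csf1r-null. In WT it was 1.09 without both doubted libraries and -0.92 without WT MIA replicate 1, which leaves only the doubted WT MIA library. In Csf1r-null it was 0.73 without both doubted libraries, and 0.10 to 0.73 over 17 alternatives. The 2 WT MIA libraries also stood on either side of WT saline in CPN, at 104 and 49.4 against 66.4 and 56.2, and in SCPN, at 82.5 and 24.0 against 49.3 and 43.4. Those differences were 0.29 ± 0.29 and 0.19 ± 0.42, and without both doubted libraries 0.69 and 0.77. Without WT MIA replicate 1 they turned to -0.32 and -0.95. The direction of Cdh4 in projection neurons after MIA in WT thus turned with the WT MIA library left out. Free RNA of Cdh4, in the replicate 1 libraries, was at 64.3 CPM in WT saline and 69.1 in Csf1r-null saline. It was at 88.2 in WT MIA and 87.2 in Csf1r-null MIA, and its part was not tested. Without both doubted libraries, Cdh4 was higher after MIA in IP, MN, CPN, SCPN and CThPN of both genotypes. The log2 differences there were 0.29 to 1.09 in WT and 0.07 to 0.73 in Csf1r-null. In AP they were -0.15 and -0.25, in that order. That setting leaves a single library, replicate 1, in WT MIA and in Csf1r-null saline. WT saline and Csf1r-null MIA keep replicates 1 and 2. In IP, Cdh4 was at 36.6 to 40.3 CPM in replicate 2 and at 49.6 to 72.5 in replicate 1 libraries. Between WT replicate 1 libraries, MIA was at 63.4 against 62.7 in saline in IP and at 166 against 158 in MN. They stood further apart in CPN, SCPN and CThPN, as given above. The part of replicate number was not tested.

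In AP, Cdh4 was at 85.5 and 59.9 CPM in WT saline, 70.2 and 43.4 in WT MIA, 66.3 and 68.6 in Csf1r-null saline and 64.0 and 44.4 in Csf1r-null MIA. The MIA mean was lower in both genotypes, with a log2 difference of -0.37 ± 0.19 over both and -0.38 ± 0.16 with the replicate block. It was -0.20 without both doubted libraries, and -0.66 to -0.20 under 17 alternatives. In MN the difference over both genotypes was 0.00 ± 0.20 and in IP 0.11 ± 0.25. Without both doubted libraries these were 0.20 and 0.22, and the sign turned in 8 and 3 of 17 alternatives. The share of mitochondrial and ribosomal protein UMIs, a sign of RNA quality, was 4.92% and 6.24% in AP of WT saline, 4.30% and 4.48% in WT MIA, 4.71% and 4.55% in Csf1r-null saline and 3.64% and 4.92% in Csf1r-null MIA, and its part in the result was not tested.

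**Figure D4:**
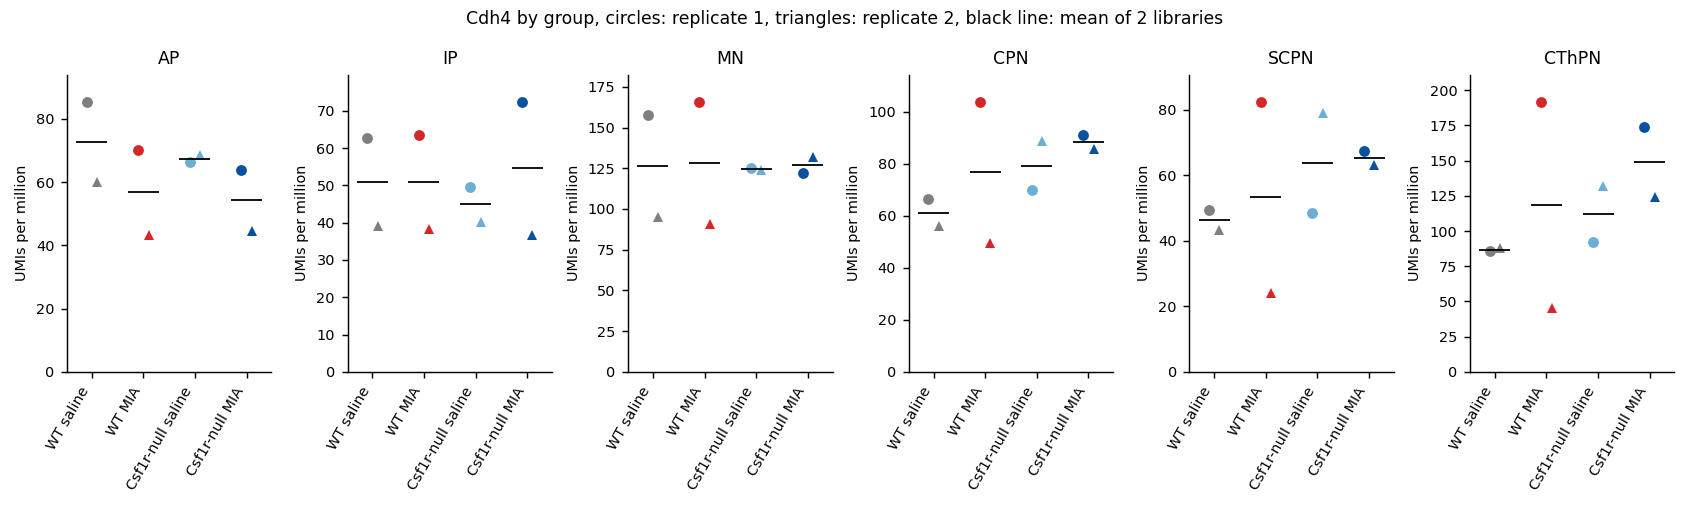
Level of Cdh4 (vertical axes, CPM, from 0) in 6 classes by group, with circles for replicate 1, triangles for replicate 2 and a black line at the mean of 2 libraries. WT MIA replicate 1 is above and WT MIA replicate 2 below both WT saline libraries in CPN, SCPN and CThPN, and by little in IP and MN.

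The pairs described next were picked after their values were seen. Cdh6 in IP, with the 8 values given above, was lower after MIA by 1.15 ± 0.38 on the log2 scale, from a mean of 29.3 to 13.5 CPM, with a log2 difference of -0.86 without both doubted libraries and -1.68 to -0.17 over 17 alternatives. These Cdh6 values rest on 107 UMIs over all libraries. The MIA mean lay within the 11.3 to 21.0 CPM of free RNA, whose part was not tested. Cdh8 in IN was at 36.4 and 49.4 in WT saline, 65.5 and 78.3 in WT MIA, 38.2 and 54.8 in Csf1r-null saline and 63.2 and 56.7 in Csf1r-null MIA. All 4 MIA libraries were above all 4 saline libraries, the only such pair among the 51, where 2.25% of all pairs did not overlap by treatment. The log2 difference was 0.55 ± 0.23, and 0.64 without both doubted libraries. The mitochondrial and ribosomal protein share in IN was 3.30%, 3.91%, 3.02% and 3.12% in the saline libraries and 2.66%, 2.97%, 2.39% and 3.43% in the MIA libraries, in the order of the groups above, and WT saline replicate 1, the lowest in Cdh8, was the library with ventral markers in IN. Free RNA of Cdh8, in the replicate 1 libraries, was at 43.0 CPM in WT saline and 54.9 in Csf1r-null saline. It was at 61.6 in WT MIA and 63.2 in Csf1r-null MIA. The part of these shares, ventral markers and free RNA in the result was not tested. Cdh8 in SCPN was lower after MIA by 0.67 ± 0.29 on the log2 scale, from a mean of 64.0 to 39.6, with -0.63 without both doubted libraries and -1.02 to -0.30 over 17 alternatives. It was also lower in replicate 2 than in replicate 1. With the replicate block, the treatment differences of Cdh6 in IP, Cdh8 in IN and Cdh8 in SCPN were -1.14 ± 0.35, 0.56 ± 0.21 and -0.69 ± 0.16. Cdh10 in IN was at 9.10 and 29.2 in WT saline, 21.8 and 2.70 in WT MIA, 53.5 and 20.5 in Csf1r-null saline and 12 and 9.86 in Csf1r-null MIA. Its saline and MIA libraries overlapped, with a log2 difference of -1.01 ± 0.52 and -0.96 without both doubted libraries, and -2.17 to -0.54 over 17 alternatives. It was -0.27 ± 0.73 in WT and -1.75 ± 0.73 in Csf1r-null (-2.20 without both doubted libraries), and the difference of the responses, 1.48 ± 1.05, is a description. These Cdh10 values rest on 88 UMIs over all libraries. Their mean of 19.8 CPM lay under the 28.2 to 45.9 CPM of free RNA, whose part was not tested. Cdh13 had a higher MIA mean in CThPN, 702 against 602 (log2 difference 0.20 ± 0.13), in SCPN, 537 against 466 (0.17 ± 0.15), and in CPN, 203 against 153 (0.38 ± 0.19). Free RNA of Cdh13, in the replicate 1 libraries, was at 149 CPM in WT saline and 147 in Csf1r-null saline. It was at 181 in WT MIA and 188 in Csf1r-null MIA, and its part was not tested. Cdh2 moved little, between -0.08 ± 0.13 in SCPN and 0.17 ± 0.15 in IN.

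Replicate number gave calls for Cdh6 in AP and Cdh8 in SCPN (the plot by replicate number), in a contrast that called many genes. The replicate 1 libraries were made with another software version and gene list than the replicate 2 libraries, list all barcodes, and held more UMIs in each group. In the edgeR fit with the replicate block, 2 of the 51 pairs were called for replicate 2 against replicate 1, against 5.37% of all pairs, a share that the members did not exceed. Cdh6 in AP was at 91.2, 72.7, 81.8 and 61.7 CPM in the replicate 1 libraries of WT saline, WT MIA, Csf1r-null saline and Csf1r-null MIA. In the replicate 2 libraries it was at 30, 35.2, 42.2 and 35.8 in the same order. The replicate 1 and replicate 2 libraries did not overlap, and the log2 difference was -1.03 ± 0.17 (edgeR adjusted p = 2.8e-04). Cdh8 in SCPN was at 82.2, 57.0, 93.2 and 42.8 in the replicate 1 libraries and at 33.7, 24.7, 46.9 and 33.9 in the replicate 2 libraries, lower in replicate 2 of all 4 groups, by a log2 difference of -0.84 ± 0.16 (edgeR adjusted p = 0.00204). Over 4 other fits with the replicate term, DESeq2 among them, both remained under 0.05, with adjusted p from 2.0e-04 to 0.0388 for Cdh6 and 0.00215 to 0.0278 for Cdh8. Batch, software and embryo cannot be told apart here.

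**Figure D5:**
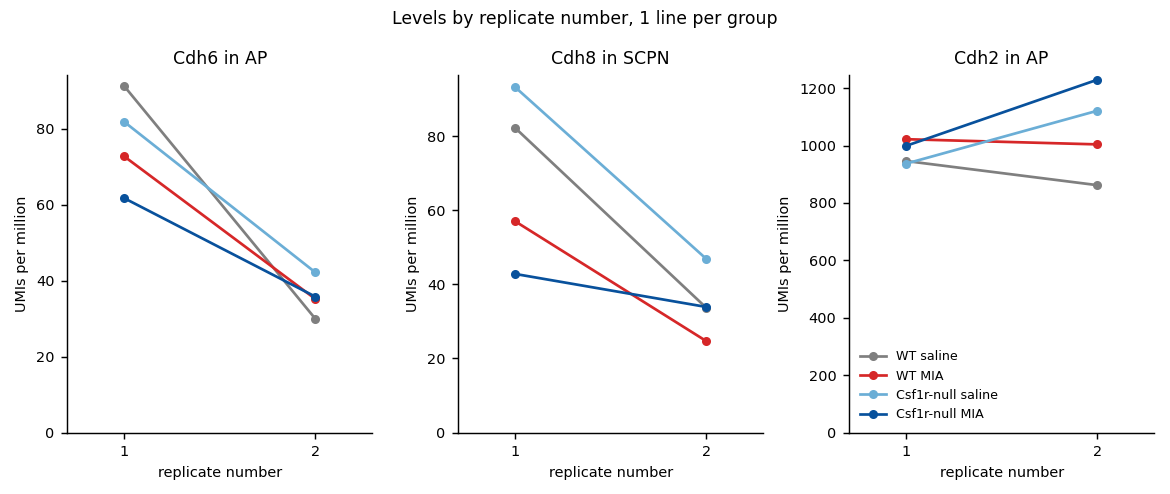
Level (vertical axes, CPM, from 0) in replicate 1 and replicate 2 libraries, 1 line per group, for Cdh6 in AP and Cdh8 in SCPN, which differed by replicate number, and Cdh2 in AP, which was not called. All 4 lines fall for Cdh6 and Cdh8, whereas for Cdh2 2 rise and 2 fall.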

How the data were processed

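Single nuclei of 8 cortex libraries were analysed (4 groups, 2 libraries each), and the 18 libraries of purified microglia were not used here. The deposited values were UMI counts per gene and barcode; per the file headers the authors made them with Cell Ranger 3.1.0 (replicate 1, all barcodes listed, 31053 genes) or 6.0.1 (replicate 2, 4653 to 6198 barcodes, 32285 genes), on mm10 per the labels (the submitters' processing notes name version 3.1.0 alone). Whether intronic reads were counted is not given in the sources used here. Nuclei were barcodes that reached 500 UMIs and 200 genes, genes were joined by Ensembl identifier, and the top Scrublet scores were removed at 0.8% per 1000 nuclei. Nuclei were clustered with scanpy 1.11.5 (2000 variable genes, 30 components, 20 neighbours, Leiden resolution 1.0) without Cdh genes, Csf1r and 4 lists of related genes. Clusters were named from listed markers, by a rule set after the clusters were seen.

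Sums of UMIs over the nuclei of a class in 1 library were tested with edgeR 4.0.16 (TMM, filterByExpr, quasi-likelihood), with group means of the 4 groups, and an adjusted p under 0.05 was called. SE is the log2 difference divided by the root of F. DESeq2 1.42.0, other scaling, no filter, leaving libraries out, a replicate block, a quality covariate, 1000 UMIs per nucleus, doublets kept and classes by marker score were the alternatives. Same-numbered libraries deviated together in every class (correlations of 0.24 to 0.55 over genes between the differences of replicate 1 and 2 in the groups), and their number marks a shared software version, so the numbers pair the libraries. The replicate contrast was added after seeing the data. Members and lists were chosen with earlier results of these data known. All 10 members are named, and from each list the 3 genes with the lowest p by genotype and the 3 with the highest level. An item withheld for evaluation is not reported here. The test was checked on simulated data. The embryos came from 4 dams, libraries are not tied to dams in the labels and WT and Csf1r-null were littermates, so libraries can share a litter and p-values measure the spread between these libraries. Poisson intervals cover counting error only.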

Additional observations from a re-analysis of the deposited data

Results flagged for a closer look

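Of the 51 tested pairs, 3 had both WT MIA libraries on one side of both WT saline libraries and both Csf1r-null MIA libraries on the opposite side of both Csf1r-null saline libraries, as had 3.67% of the 70630 pairs of all genes. Cdh11 in CPN was at 44.8 and 51 CPM in WT saline, 76.5 and 59.8 in WT MIA, 60 and 81.0 in Csf1r-null saline and 55.2 and 55.2 in Csf1r-null MIA, and the log2 responses differed by 0.82 ± 0.32 (WT less null, edgeR). Cdh11 in IN was at 89.9 and 103 in WT saline, 121 and 138 in WT MIA, 141 and 128 in Csf1r-null saline and 123 and 101 in Csf1r-null MIA, a difference of 0.66 ± 0.34. Cdh13 in AP was at 5.65 and 5.00 in WT saline, 12.4 and 8.19 in WT MIA, 9.32 and 11.9 in Csf1r-null saline and 7.12 and 3.70 in Csf1r-null MIA, a difference of 1.79 ± 0.77. These Cdh13 values rest on 72 UMIs over all libraries and lay far under the 147 to 188 CPM of free RNA. The part of free RNA in them was not tested. In edgeR's interaction contrast 0 of the 51 pairs were called. Without both doubted libraries the differences were 0.67, 0.53 and 1.81, and they ranged over the alternatives from 0.53 to 1.07, 0.50 to 0.89 and 0.99 to 2.3. Since treatment had entered the selection of the members, these are descriptions. Groups held 2 libraries, too few to look for single libraries far from the rest of their group.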

How the results depend on the processing

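No alternative called a member pair by genotype or treatment. The difference of responses gave a call only without a filter on low counts, for 1 of 69 member pairs (Cdh10 in CPN), against 21 of 124713 over all genes. The main fit called no pair of any gene and treatment had entered the selection, so nothing is read from these counts. Over all genes, edgeR called none of the 70630 pairs in the 5 contrasts of genotype and treatment (824 to 4061 at an unadjusted p under 0.05). Counts rose with DESeq2 (74 for treatment in WT, 13 over both genotypes, 4 for genotype), without the filter (178 for treatment in WT, 6 in Csf1r-null, 48 over both genotypes, 76 for genotype and 21 for the difference of responses) and with the quality covariate (22, 2, 13, 9 and 11 in that order). With the replicate block, which pairs the libraries, counts were 351 for treatment in WT, 19 over both genotypes, 34 for genotype and 2 for the difference of responses. They were 0 in Csf1r-null, and 0 of the 51 member pairs were called in each contrast. Leaving out 1 library gave 0 to 9 calls for treatment in WT (9 without WT saline replicate 2), 0 to 1 for genotype and 0 in the other contrasts, and leaving out both doubted libraries gave 1 for treatment in WT. Without both doubted libraries, 36 of 51 genotype estimates kept their sign, with a median shift of 0.11 (log2), and 25 lay above 0 where 36 had. The 5 genotype pairs Cdh13 in IN, Cdh12 in MN, Cdh6 in IP and Cdh8 in AP and IP had been picked for the lowest unadjusted p. The alternatives reuse the same libraries. That all 85 of their values under 17 alternatives kept their direction is thus no support, and their size moved (Cdh12 in MN ranged from 0.17 to 0.79). Of 526 treatment and interaction values, 51 moved by at least 1 standard error. Each of the 10 members kept its highest class, except that with classes by marker score Cdh10 was highest in CThPN (238 CPM, against 161 in MN), where 594 nuclei of the unnamed cluster then joined that class. The extent of SCPN and CPN depended on the clustering. With doublets kept, SCPN held 2153 nuclei (4902 in the main setting) and CPN 4820 (7001), and a cluster of 5094 nuclei was unnamed. The SCPN cluster was named in the main setting at a marker score of 0.77, where 0.7 was needed. For replicate 2 against replicate 1, the 3791 calls over all genes became 1577 with DESeq2 and 2462 with the quality covariate. The cause was not tested. Depth limits Cdh18 and Cdh20, with 109 and 132 UMIs over the 7 classes.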
